A study of Oniscidea with 6 samples.

Results

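The sarcomeric myosin heavy chains are the motor proteins of the thick filaments of striated muscle. Their 10 mouse symbols, Myh1, Myh2, Myh3, Myh4, Myh6, Myh7, Myh7b, Myh8, Myh13 and Myh15, were taken by name from a table of 24421 mouse symbols, and all 10 were present and had reads. RNA came from woodlice (Oniscidea), terrestrial crustaceans some of which curl into a ball, in 3 samples with the status Rolling and 3 with the status Stretching. All samples were polyadenylated RNA of fresh, untreated tissue, and the sources used here do not state the species, sex, age, tissue or number of animals. No label says that the samples of a group came from different animals, so the p-values reflect how far these samples scatter, a spread that may be technical. A symbol is the mouse name under which woodlouse reads were counted, and not an identified woodlouse gene.

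In vertebrates each sarcomeric heavy chain gene serves particular fibre types or stages, and the motor head of the chain splits ATP and pulls on actin while its long tail packs into the filament. Myh3 and Myh8 are the embryonic and perinatal chains, Myh2, Myh1 and Myh4 are the fast chains of adult limb muscle and Myh13 is the chain of eye muscle, and these 6 lie side by side in the mouse genome. Myh6 and Myh7 are the neighbouring cardiac chains, the latter also the slow skeletal chain, and Myh7b and Myh15 are older branches of the family, Myh15 being best known as the ventricular chain of the chicken. In arthropods muscle myosin is organised differently, and the fruit fly makes its muscle heavy chains from one gene by alternative splicing. The members are close in sequence, reads that match several of them could be assigned to any, and the sources used here do not say how such reads were treated, so that every division of reads among the members is uncertain.

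Counted reads per library ranged from 403971 to 1122154. Values are normalised read counts, the reads on a symbol divided by one size factor per library, so that 1 read was worth 0.527 to 1.22. Of the 10 members, 4 reached the mean of 10 over the 6 libraries that was required for testing (Myh3, Myh6, Myh7 and Myh15), and 6 did not. Limma with Benjamini-Hochberg adjustment over all 2948 tested features, with a threshold of 0.05, called 3 of the 4, with Myh15 and Myh3 higher and Myh6 lower in rolling. Over all tested features 75.2% were called (37.8% higher and 37.4% lower in rolling), so the share of members called was near the background and is not a result about the family. The share called depended on the filter, at 31.6% without one and 87.9% with a minimum mean of 100. The median absolute log2 fold change of called features was 3.70, below those of Myh15 and Myh6 and above that of Myh3. Fold changes are on the log2(value + 1) scale, rolling minus stretching.

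Myh15 had the smallest adjusted p of the 4 tested members. It stood at 559, 945 and 711 in rolling samples 1, 2 and 3 and at 24.0, 19.2 and 11.1 in stretching samples 1, 2 and 3. Every rolling library was far above every stretching library. The means were 738 ± 195 and 18.1 ± 6.52 (SD, n = 3), and the log2 fold change was 5.30, with an SE of 0.40 and a limma adjusted p of 3.6e-06. The values rested on 2486 reads in rolling and 52 in stretching.

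Myh3, the embryonic chain of vertebrate muscle, had normalised read counts of 860.2, 470.1 and 834 in rolling 1 to 3 and 125, 169.8 and 178 in stretching 1 to 3. The groups did not overlap, and rolling 2 was the lowest rolling library. Each stretching library held 130 to 161 reads of Myh3, against 10 to 25 of Myh15. Its means of 721 ± 218 and 158 ± 28.9 (SD, n = 3) put the log2 fold change at 2.15, with an SE of 0.39 and a limma adjusted p of 0.00084. Reads numbered 2783 in rolling and 441 in stretching.

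Myh6, the fast cardiac chain, went the other way. It stood at 8.96, 14.7 and 4.35 in rolling 1 to 3 and at 3081, 163 and 1158 in stretching 1 to 3. All rolling libraries were below all stretching libraries, and the stretching libraries differed widely among themselves, with stretching 2 the lowest. The means were 9.33 ± 5.18 and 1467 ± 1484 (SD, n = 3), so that the SD of the stretching group was as large as its mean. The log2 fold change was -6.47 (SE 0.94; limma adjusted p 0.00020), and it was -5.53 without stretching 1 and -7.65 without stretching 2. There were 33 reads in rolling and 4405 in stretching.

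Myh7, the slow chain and the genomic neighbour of Myh6, had normalised read counts of 10.01, 6.12 and 21.7 in rolling and 11.5, 6.79 and 5.54 in stretching 1 to 3. The groups overlapped. The log2 fold change was 0.50 (SE 0.53; limma adjusted p 0.41), from 44 reads in rolling and 23 in stretching, a difference within the spread of the replicates.

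**Figure D1:**
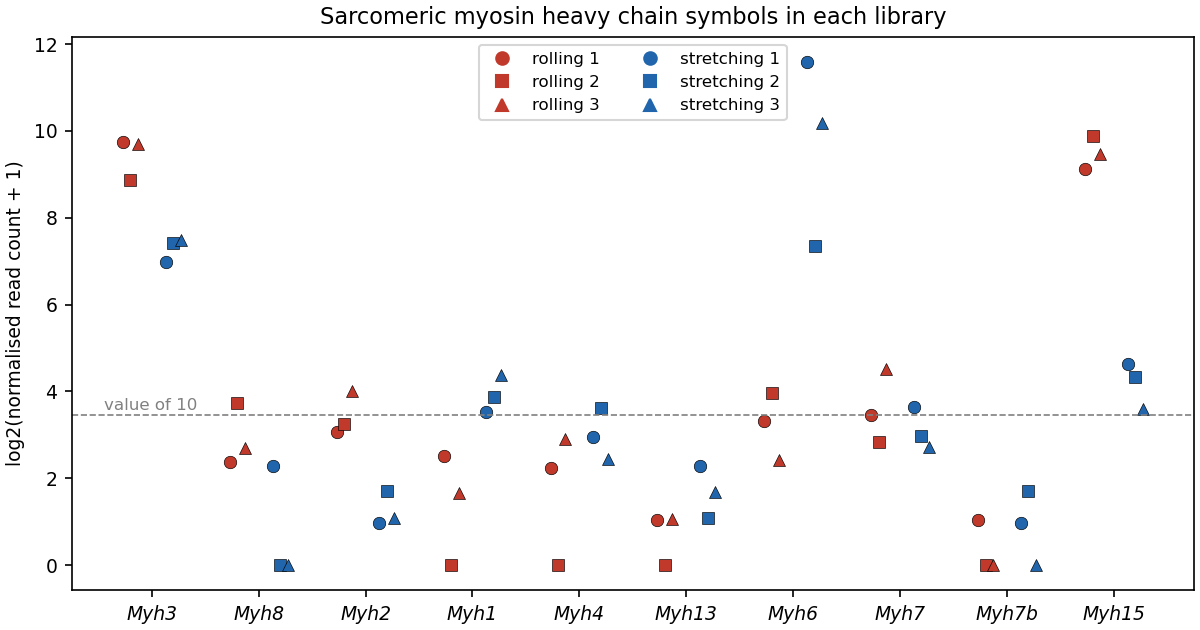
Normalised read count of each sarcomeric myosin heavy chain symbol, as log2(value + 1) on the vertical axis, with one point per library and the shape giving the sample number. The dashed line marks a value of 10; Myh3 and Myh15 lie higher in all 3 rolling libraries, Myh6 in all 3 stretching libraries, and the other members lie near or under the line.

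The other 6 members, whose mean was under 10, were left untested and are described by their reads and by the authors' deposited table, which adjusts over 10612 features and called 37.2% of them. Myh2, a fast chain, had 14, 7 and 14 reads in rolling 1 to 3 and 1, 2 and 1 in stretching. Corrected for depth, the ratio of rolling to stretching was 6.81, with a 95% counting interval of 2.44 to 26.4. The groups did not overlap, and the authors' deposited table gave Myh2 a log2 fold change of 2.85 (SE 1.12) with an adjusted p of 0.033.

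Myh1, another fast chain, showed the opposite direction in the authors' deposited table, with a log2 fold change of -2.50 (SE 0.97) and an adjusted p of 0.031. It had 9, 0 and 2 reads in rolling 1 to 3 and 11, 12 and 18 in stretching, and the normalised values did not overlap. The depth-corrected ratio of stretching to rolling was 4.79 (95% counting interval 2.42 to 10.3). Myh2 and Myh1, both chains of fast limb fibres in the mouse, were therefore called in opposite directions, on 39 and 52 reads over the series.

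Myh8, the perinatal chain, had 8, 10 and 5 reads in rolling 1 to 3, and 4, 0 and 0 in stretching. The rolling values were all higher once scaled, with a ratio of 4.48 (95% counting interval 1.53 to 17.8), but the adjusted p in the authors' deposited table was 0.16. Myh4, the chain of the fastest limb fibres, had 13 reads in rolling and 21 in stretching, with overlapping groups and an adjusted p of 0.43 in the authors' deposited table. Myh13 had 3 reads in rolling and 7 in stretching, and Myh7b had 2 and 3. The values of Myh13 did not overlap, yet the highest rolling value, 1.09, and the lowest stretching value, 1.13, were each worth 1 read. For Myh13 and Myh7b a difference was not detectable at this depth. Counting intervals of these ratios pool the reads of a group, so they cover counting error only and leave out the scatter between libraries. PCR copies are not independent molecules, so the counting error may itself be larger.

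The groups did not overlap for 3 of the 4 tested members, against 78.7% of all tested features, so that count was also near the background. They did not overlap for 4 of the 6 untested members, Myh1, Myh2, Myh8 and Myh13, against 30.5% of the 15312 features with a read and a mean under 10. Those features include many too shallow to separate the groups at all, such as any with a single read. The share is thus not matched in depth to these members, and no result about the family is drawn from it.

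The summed level of the family overlapped between the groups over all 6 libraries, whereas the shares of Myh6 and of Myh15 within it did not. The 10 members together stood at 1460.0, 1457 and 1601 in rolling 1 to 3 and at 3268, 389 and 1380.4 in stretching 1 to 3. The rolling libraries were close to each other and lay inside the range of the stretching libraries. The means were 1506 ± 82.2 and 1679 ± 1463 (SD, n = 3). The difference of the mean log2 sums was 0.32 (SE 0.89; exact two-sided permutation p 0.7), which is opposite in sign to the difference of the means, and it was -0.50 without stretching 2 (exact permutation p 0.4). It was 1.04 without stretching 1 (exact permutation p 0.1, the smallest possible), and the sums of the remaining libraries did not overlap. In bulk RNA, fewer cells of a kind and less RNA per cell cannot be told apart.

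As a share of all counted reads of a library, the family took 0.514% (95% Wilson interval 0.495% to 0.533%), 0.285% (0.270% to 0.302%) and 0.131% (0.125% to 0.138%) in rolling 1 to 3. The shares were 0.747% (0.723% to 0.773%), 0.0852% (0.0766% to 0.0946%) and 0.229% (0.217% to 0.242%) in stretching 1 to 3. These shares overlapped between the groups as well.

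Split by genomic neighbourhood in the mouse, the sums went apart. The 6 members of the skeletal cluster, Myh3, Myh8, Myh2, Myh1, Myh4 and Myh13, summed to 881, 491 and 864 in rolling and to 150.4, 198 and 206 in stretching 1 to 3. Every rolling sum was higher, with a log2 difference of 1.97 (SE 0.31; exact permutation p 0.1, the smallest p that 3 samples against 3 allow). Myh6 and Myh7 summed to 19.0, 20.8 and 26.1 in rolling and to 3093, 169.8 and 1163 in stretching 1 to 3. Every rolling sum of this cardiac pair was lower, with a log2 difference of -5.22 (SE 1.23; exact permutation p 0.1). Leaving out stretching 1 gave -4.29, and leaving out stretching 2 gave -6.38. The skeletal cluster sum is mostly Myh3 and the cardiac sum mostly Myh6, so these sums do not add evidence to the values of the individual members.

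**Figure D2:**
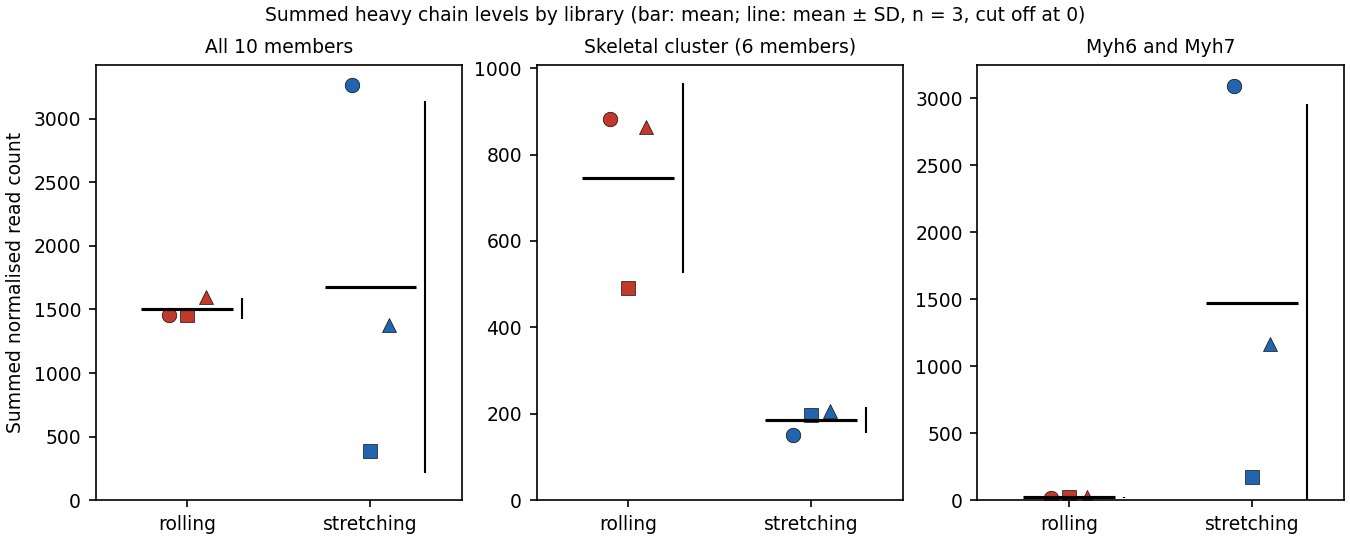
Summed normalised read count by library for all 10 members, for the 6 members of the skeletal cluster and for Myh6 with Myh7, each panel with its own vertical axis from 0. Points are libraries, horizontal bars are group means and vertical lines are ± SD (n = 3); the sums of all members overlap between groups, while those of the cluster are higher and those of the cardiac pair lower in all 3 rolling libraries.

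Shares within the family do not depend on the scaling between libraries. They are shares of reads and are not corrected for transcript length, which the table does not give. Myh3 and Myh15 together held 97.2%, 97.1% and 96.5% of the family reads in rolling 1 to 3, of 2770, 1190 and 1473 reads. In stretching 1 to 3 they held 4.54%, 48.5% and 13.7%, of 3411, 344 and 1246 reads. Myh6 held 94.3% (95% Wilson interval 93.5% to 95.01%), 41.9% (36.8% to 47.1%) and 83.9% (81.7% to 85.8%) in stretching 1 to 3. In rolling 1 to 3 Myh6 held 0.614% (0.384% to 0.981%), 1.01% (0.578% to 1.75%) and 0.272% (0.106% to 0.696%). The low share of Myh6 in stretching 2 thus accompanied its low level there. In that library Myh3 held 43.6% (38.5% to 48.9%), about as many reads as Myh6. Myh3 held 3.81% and 12.9% in stretching 1 and 3, and 58.9%, 32.3% and 52.1% in rolling 1 to 3. The shares of Myh3 therefore overlapped between the groups.

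Within the rolling group the division between Myh3 and Myh15 varied. Myh15 held 38.3% (95% Wilson interval 36.5% to 40.1%), 64.9% (62.1% to 67.5%) and 44.4% (41.9% to 46.9%) of the family reads in rolling 1 to 3. Rolling 2 was the only rolling library in which Myh15 had more reads than Myh3. In stretching 1 to 3, Myh15 held 0.733% (0.497% to 1.08%), 4.94% (3.11% to 7.77%) and 0.803% (0.437% to 1.47%). The 6 members under the level for testing held 1.43% to 1.90% of the family reads in rolling libraries and 0.821% to 7.85% in stretching libraries.

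**Figure D3:**
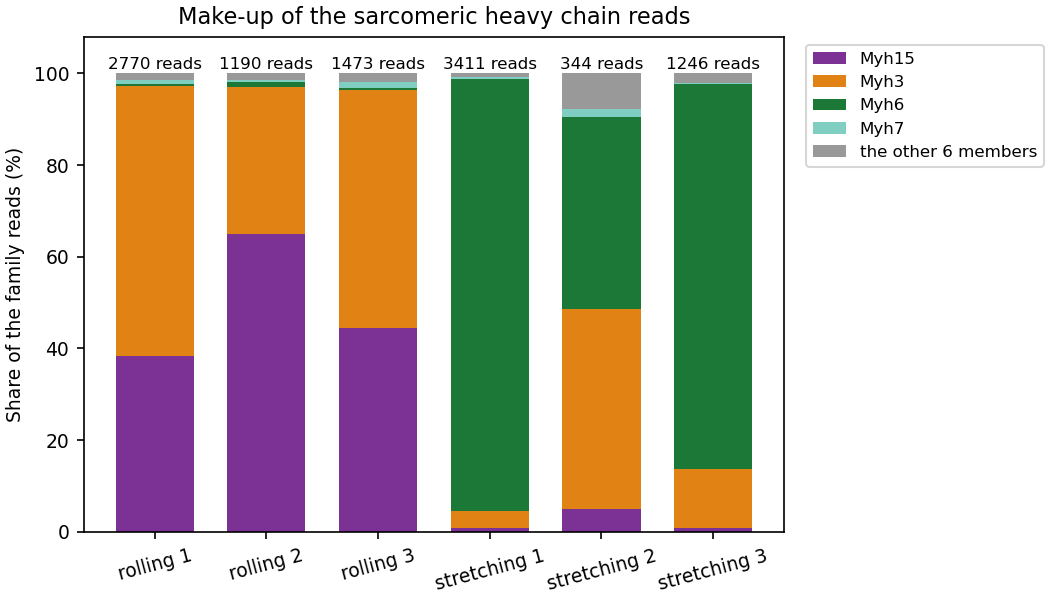
Share of the family reads (%) held by Myh15, Myh3, Myh6, Myh7 and the other 6 members in each library, with the number of family reads above each bar. Myh3 and Myh15 fill 96.5% to 97.2% of the rolling bars, and Myh6 fills 41.9% to 94.3% of the stretching bars.

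Ratios of members inside a library gave the same contrast. The ratio of Myh3 to Myh6 was 96, 32 and 192 in rolling 1 to 3, and 0.0404, 1.04 and 0.154 in stretching 1 to 3. The groups did not overlap, and the log2 ratio, with 1 added to each value, differed by 8.63 (SE 1.52; exact permutation p 0.1, the smallest possible). It differed by 7.53 without stretching 1 and by 9.86 without stretching 2. The ratio of Myh15 to Myh6, examined after the values were seen, was 62.4, 64.3 and 163.5 in rolling and 0.00777, 0.118 and 0.00957 in stretching 1 to 3. Its log2 value differed by 11.78 (SE 1.32; exact permutation p 0.1), by 11.06 without stretching 1 and by 13.03 without stretching 2.

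Myh15 and Myh3, which both rose, did not rise equally. Their ratio, examined after the values were seen, was 0.650, 2.01 and 0.853 in rolling 1 to 3, and 0.192, 0.113 and 0.0621 in stretching 1 to 3. All rolling ratios were higher, and the log2 ratio differed by 3.15 (SE 0.67; exact permutation p 0.1, the smallest possible). Since the members were compared with earlier results known, these ratios are descriptions.

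The tested features with the profiles most like those of the called members were sought, leaving out the members and gene models without a functional name. The measure was the root mean square difference between log2(value + 1) profiles over the 6 libraries, each less its own mean. For Myh15 the nearest were Mknk1, a kinase of translation initiation (0.27), Olfr1189, an olfactory receptor (0.27), and the alpha-tubulin Tuba3b (0.30). Mknk1 and Olfr1189 each stood at 0.958, 1.13 and 0 in stretching 1 to 3, where the added 1 shapes the profile. Tuba3b stood at 1883, 2275 and 2915 in rolling 1 to 3 and at 69.9, 78.1 and 51.0 in stretching 1 to 3. For Myh3 they were Cfap69, a protein of the sperm tail (0.18), Npat, a regulator of histone genes (0.19), and the endocytic kinase Aak1 (0.22). None of these 6 is a gene of the contractile lists described here.

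For Myh6 the nearest profiles were at larger differences, with complement C3 at 0.63, the magnesium transporter Magt1 at 0.77 and the keratin Krt25 at 0.78. C3 stood at 205, 30.6 and 94.2 in stretching 1 to 3, again with stretching 2 the lowest, and at 1.05, 1.22 and 0 in rolling. Magt1 and Krt25 had no read in rolling, and both were also lowest in stretching 2, at 30.6 and 14.7. For the sum of the family they were the helicase Ddx23 (0.47), Otogl (0.48) and Ttc41 (0.48).

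Each of the lists that follow held few tested genes, and 75.2% of all tested features were called. Their counts of called genes are therefore not results about the lists. The smooth muscle and nonmuscle heavy chains are the nearest relatives outside the family. Of the 3 tested, Myh14 rose, Myh9 fell and Myh10 was not called, with a median log2 fold change of 0.64 beside 0.10 over all tested features. Myh9, a nonmuscle chain, stood at 3.69, 1.22 and 2.17 in rolling and at 27.8, 30.6 and 16.6 in stretching 1 to 3, without overlap. Its log2 fold change was -2.97 (SE 0.46; limma adjusted p 0.00029). Myh14, another nonmuscle chain, had 94 reads in rolling and 1 in stretching, or 73.2 times as many after correction for depth (95% counting interval 12.8 to 2921). Most of those reads, 75, were in rolling 1, and the fitted log2 fold change of 3.83 was 3.24 without that library, 1.63 with a pseudocount of 8 and 5.78 with DESeq2 on whole reads. Myh10, the chain abundant in neurons, stood at 46.1 ± 11.1 and 30.2 ± 11.5 (SD, n = 3; limma adjusted p 0.18). The smooth muscle chain Myh11 had 10 reads in rolling and 36 in stretching and was not tested. Its adjusted p in the authors' deposited table was 0.041, lower in rolling.

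Light chains brace the lever arm of the heavy chain. Of 15 symbols for light chains and their kinases, 5 had no read and 2 were tested, of which 1 fell. The regulatory light chain Myl12a averaged 164 ± 46.1 in rolling libraries and 125 ± 41.2 in stretching libraries (SD, n = 3; limma adjusted p 0.37), with overlapping groups. Mylk2, the kinase of the light chain of skeletal muscle, had no read in rolling and 43, 21 and 27 in stretching 1 to 3. Set against 3 reads for the whole rolling group, it was 39.0-fold lower there. The lower limit of the counting interval, with no read in rolling, was 31.0-fold. Myl1, a light chain of fast muscle, was under the level for testing, with 38 reads in rolling and 1 in stretching, and the cardiac atrial light chain Myl7 had 0 and 12.

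Of 17 symbols of the thick filament, M band and Z disc, 2 were tested, of which 1 rose. Ttn, the elastic filament titin, stood at 696, 249.7 and 804 in rolling and at 239, 181 and 196 in stretching 1 to 3. The rolling values were higher but rolling 2 was near the stretching range, and the log2 fold change was 1.34 (SE 0.49; limma adjusted p 0.031). The call of Ttn was lost in 5 of the 6 fits that left out a library, with adjusted p 0.094 and 0.093 without rolling 1 and 3 and 0.066, 0.102 and 0.090 without stretching 1, 2 and 3. Neb, nebulin of the thin filament, stood at 74.6 ± 9.77 and 42.8 ± 12.1 (SD, n = 3) without overlap, and its limma adjusted p was 0.062. Mybpc1, Flnc, Myom3, Actn2, Nebl and Ldb3, all untested, were higher in stretching without overlap. They had 0, 0, 1, 2, 2 and 6 reads in rolling and 10, 12, 19, 17, 11 and 14 in stretching. Des, also untested and without overlap, had 24 reads in rolling and 1 in stretching. Groups did not overlap for 30.5% of all features with a read and a mean under 10.

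Thin filament regulators were almost without reads. Of 16 symbols, 8 had no read in any library and only Lmod3, a leiomodin that nucleates actin filaments, was tested, at 14.2 ± 6.67 and 14.1 ± 2.96 (SD, n = 3; limma adjusted p 0.89). Of the 8 troponin genes, the calcium switch of striated muscle, 2 had reads, 8 reads in all over the 6 libraries. The summed normalised read count of this list was 19.6 to 31.1 in rolling libraries and 31.0 to 44.1 in stretching libraries. The troponins are defining markers of striated muscle in the mouse. In the same libraries the summed heavy chains stood between 389 and 3268 and the summed muscle actins between 19811 and 129296. These values are not corrected for transcript length, and the cause of the difference between the lists was not tested.

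All 4 muscle actins were tested, and 1 rose, with a median log2 fold change of 0.87. Acta1, skeletal actin, averaged 25001 ± 13205 in rolling libraries and 4086 ± 853 in stretching libraries (SD, n = 3; limma adjusted p 0.011), a call that was lost without stretching 1 (adjusted p 0.073) and without stretching 3 (0.060). Acta2, Actc1 and Actg2 did not pass the threshold, with limma adjusted p of 0.064, 0.92 and 0.49. The call of Acta2 was gained without rolling 1 (adjusted p 0.024).

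Both tested genes of myosin folding and turnover were called, in opposite directions, beside 75.2% of all tested features. Hsp90aa1, a chaperone that works with Unc45b in folding the myosin head, stood at 5.80, 3.67 and 5.43 in rolling and at 172, 271 and 141 in stretching 1 to 3. The log2 fold change of -4.996 had an SE of 0.38 and a limma adjusted p of 3.9e-06. Trim63, a ubiquitin ligase of myosin heavy chains, had 23, 52 and 23 reads in rolling 1 to 3 and none in stretching. Set against 3 reads for the whole stretching group, it was 25.4-fold higher in rolling. The lower limit of the counting interval, with no read in stretching, was 20.3-fold. The fitted log2 fold change of Trim63, 4.81, was 4.21 without rolling 2, 2.18 with a pseudocount of 8 and 7.41 with DESeq2 on whole reads. Unc45b itself had 1 read in all.

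Of the muscle transcription factors 2 of 8 were tested. Mef2c, at 7.21 ± 2.74 in stretching and 23.4 ± 7.50 in rolling libraries (SD, n = 3), rose by 1.58 on the log2 scale, with an SE of 0.43 and a limma adjusted p of 0.0083. Mef2d fell by 1.17 (log2), with an SE of 0.43 and a limma adjusted p of 0.033. The call of Mef2d was lost without rolling 2 and 3 (adjusted p 0.080 and 0.079) and without stretching 1 and 3 (0.073 and 0.108). Myod1, the founding factor of myogenesis, had no read.

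**Figure D4:**
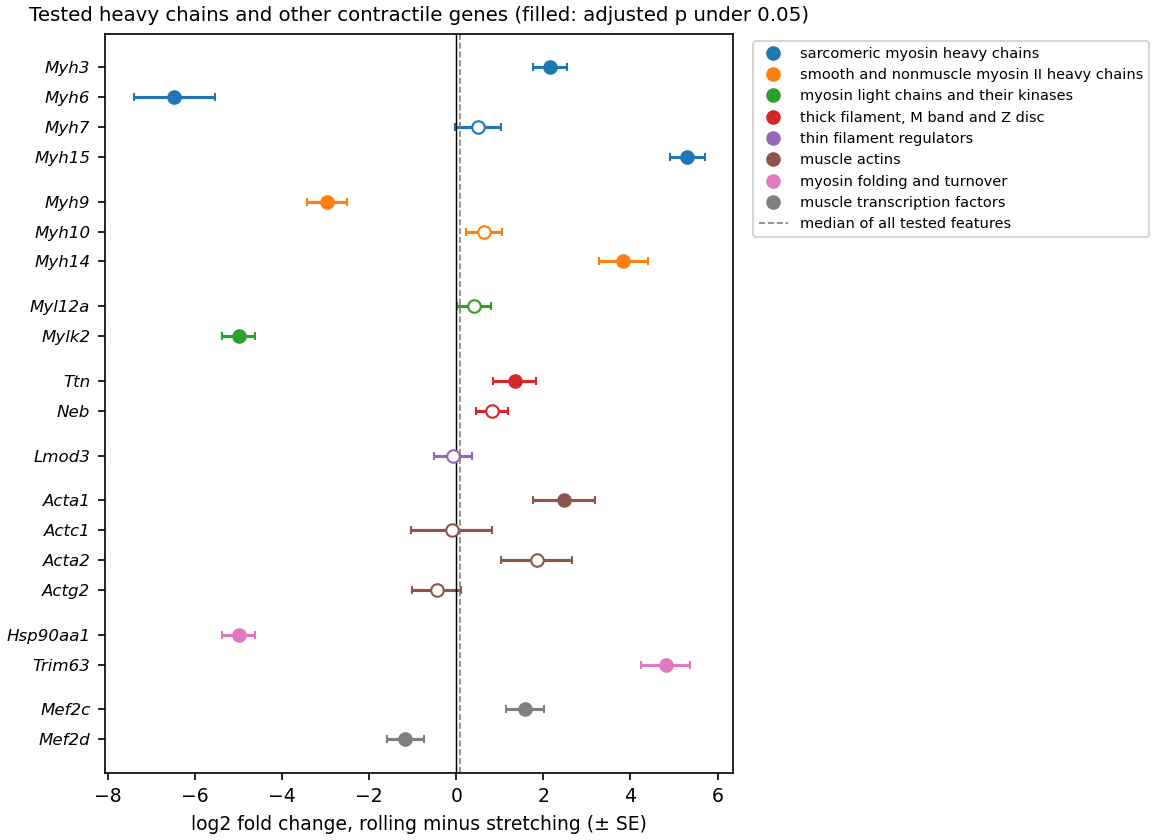
Log2 fold change, rolling minus stretching, with its SE on the horizontal axis, for the tested heavy chains and the tested genes of 7 other contractile lists, coloured by list. Filled points passed a limma adjusted p of 0.05, and the dashed line is the median of all tested features, 0.10; filled points lie on both sides of 0 among the heavy chains and in 3 of the other lists.

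Markers of other cell types were summed as well. The sums of neuron markers and of vertebrate tissue markers did not overlap between the groups, while those of gut markers did. Counts of called markers stand beside the 75.2% called over all tested features. The summed normalised read count of 13 neuron markers was 689 to 1277 in rolling libraries and 79.5 to 94.0 in stretching libraries, and the 2 that were tested rose. Of 10 gut markers, 2 rose and 4 fell of 6 tested, with sums of 575 to 1750.4 and 1374.5 to 1641, and Prss1 and Cela1 had no read. The gut count depends on the setting: Amy2b lost its call in 9 of 15 alternatives, Amy2a5 without stretching 1, 2 or 3 (adjusted p 0.066, 0.064 and 0.081) and Mgam with library totals (0.059). Of 10 markers of vertebrate tissues, which woodlice lack, 3 rose and 1 fell of 4 tested, with sums of 4248 to 8130.0 in rolling and 119.6 to 164 in stretching, and the haemoglobins Hba-a1 and Hbb-bs had no read. Single symbols made up most of these sums. Csn2 stood at 7839, 3689 and 7215 in rolling 1 to 3, without a read in stretching. Krt5, which fell, stood at 144, 159 and 103 in stretching 1 to 3. The neuron sum in rolling was mostly Unc13a, at 490, 1139 and 650 in rolling 1 to 3. The part of these shifts in the heavy chain values was not tested.

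Each of the 4 tested heavy chains stayed on the same side of the threshold, and kept its direction, under every alternative setting that gave it a value. The log2 fold change of Myh15 ranged from 4.84 to 5.53, that of Myh3 from 1.97 to 2.44, that of Myh6 from -7.65 to -5.53 and that of Myh7 from 0.04 to 0.88. Myh7 was not called under any of them.

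**Figure D5:**
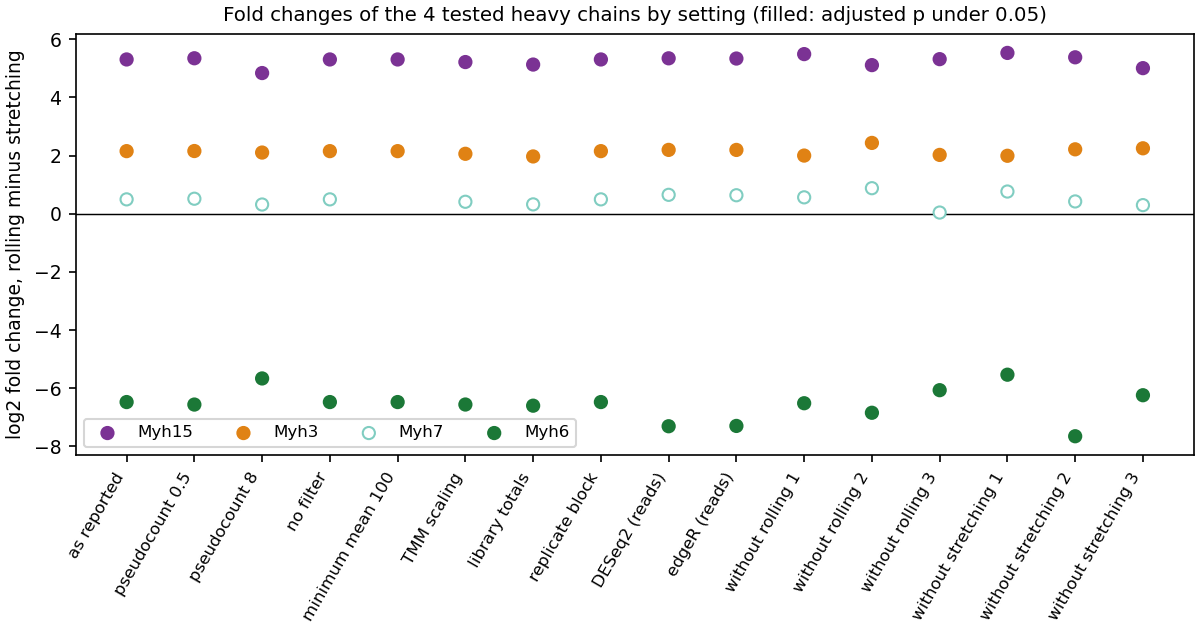
Log2 fold change, rolling minus stretching, of the 4 tested heavy chains as reported and under each alternative setting, along the horizontal axis. Filled points passed an adjusted p of 0.05; Myh15 and Myh3 stay above 0 and Myh6 below 0 throughout, and Myh7 was left out by a minimum mean of 100.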

How the data were processed

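Polyadenylated RNA of 3 rolling and 3 stretching woodlouse samples was sequenced. The deposited signal values are reads per mouse symbol divided by one size factor per library. The submitters' processing notes list BWA, DESeq2 and the build mm10 with no role or version; the sources used here do not say which program counted the reads or how it handled reads that match several genes. Per the file headers, the authors' table also holds a log2 fold change with its SE, a test score and p-values. Columns named curl were read as rolling and columns named strait as stretching, from what the words mean.

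Each column held whole multiples of its smallest nonzero value, which gave back whole reads for 100% of the values above 0 (tolerance 0.001 reads, largest deviation 1.0e-09). Features with a mean of at least 10, 2948 in all, were tested two-sided on log2(value + 1) with limma 3.58.1 (R 4.3.3), its variance prior following the mean. Sums and ratios were compared by an exact permutation test over libraries. Counting intervals are at 95%, and 3 reads, the floor, correspond to 1.58 to 3.67 in a library. The script was tested on simulated data in which a small part of the features differed. That checks the script and is no support for the calls in these data. Other settings were TMM scaling, library totals, a minimum mean of 100 or none, pseudocounts of 0.5 and 8, a replicate block, each library left out in turn, and DESeq2 1.42.0 and edgeR 4.0.16 on the whole reads.

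The members and the 10 other lists were chosen with earlier results of these data known. Named genes were all members, up to 4 called and 2 uncalled tested genes of each contractile list with the highest mean, and the 3 nearest profiles of each called member and of the sum; untested genes were named after their values were seen. Marker lists of neurons, gut and vertebrate tissues are given as sums and counts, and some of their genes are named. A gene of the thick filament list is not reported here.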

Additional observations from a re-analysis of the deposited data

How the results depend on the processing

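The number of called features was 2217. It was 5773 without a filter, 31.6% of 18260 features, and 284 with a minimum mean of 100, 87.9% of 323. Both the number tested and the share called thus differ with the filter. On the whole reads DESeq2 called 2191 and edgeR 2238. With limma the number was 2076 to 2173 when a library was left out. The family sum changed sign without Myh3 (-0.29, exact permutation p 0.8) and ranged from -0.50 to 1.04 when a library was left out, negative without stretching 2. Without Myh6 it was 2.82 (exact permutation p 0.1). Lmod3, not called, changed sign with DESeq2 (0.045), with edgeR (0.050), without rolling 3 (0.21) and without stretching 2 (0.07), and ranged from -0.40 to 0.21 when a library was left out. Actc1, not called, changed sign with DESeq2 and edgeR (0.68 each), without rolling 1 (0.58), without rolling 2 (0.24) and without stretching 2 (0.04), and Actg2 without rolling 1 (0.022); their ranges with a library left out were -1.14 to 0.58 and -0.92 to 0.022. The cause of these changes was not tested. The call of Ttn was also lost without a filter and with scaling to library totals (adjusted p 0.063 and 0.149), that of Mef2c with scaling to library totals (0.109), and that of Mef2d without a filter, with library totals, with DESeq2 and with edgeR (0.066, 0.149, 0.073 and 0.052). Neb was called with a pseudocount of 8 (0.045), and Acta2 with that pseudocount, a minimum mean of 100, TMM, library totals, DESeq2 and edgeR (0.036, 0.039, 0.047, 0.031, 0.00022 and 0.046). Among the features also tested as reported, TMM scaling (2922 features) and library totals (2937) put the median log2 fold change at -0.01 and -0.08, against 0.10. Relative to that median, the log2 fold change of Myh15 was 5.21, 5.23 and 5.20 as reported, with TMM and with library totals, that of Myh3 was 2.06, 2.07 and 2.05, and that of Myh6 was -6.57, -6.55 and -6.52. Amy2b lost its call without rolling 1 or 2 (0.072 and 0.116), without stretching 1, 2 or 3 (0.115, 0.108 and 0.128), with a pseudocount of 8 (0.051), without a filter (0.086), with DESeq2 (0.066) and with edgeR (0.084), and the neuron marker Tubb3 lost it with library totals (0.054).

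Samples of the same number did not deviate together, with correlations of 0.02, -0.01 and 0.01 for numbers 1, 2 and 3. With the replicate block 2224 features were called, and no call changed among the members. The block cannot change a group difference when every number has a sample in both groups. The fold changes of Myh15 (5.30), Myh3 (2.15), Myh6 (-6.47) and Myh7 (0.50) were therefore the same by design. So were the family sum (0.32), cluster sum (1.97), cardiac pair sum (-5.22) and Myh3 to Myh6 ratio (8.63). For the cluster sum, the cardiac pair sum and that ratio the exact permutation p was 0.25 within blocks, the smallest possible there, and 0.1 without blocks. Mef2d lost its call with the block (adjusted p 0.051). Depth limits the 6 members with 5 to 52 reads.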
